A study of Homo sapiens with 7 samples.

Results

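Occupancy of 9 BCL2 family genes by a B cell coactivator complex was examined in OCI-Ly7 cells, a line established from a human diffuse large B-cell lymphoma. The members were chosen by function, with earlier results of these data known. The 4 pro-survival genes were BCL2, BCL2L1, MCL1 and BCL2A1, and the 5 pro-death genes were BCL2L11, BBC3, PMAIP1, BAX and BAK1, out of 19974 protein-coding genes on chromosomes 1 to 22 and X. A peak was given to a gene when its summit lay inside the gene, or within 100 kb of either end with that end nearest among all protein-coding gene ends. By this rule the 9 genes received 578 peaks from the 6 peak lists. Peaks of any list that overlapped by at least 1 bp were merged, which gave 161 regions at these genes.

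Chromatin immunoprecipitation followed by sequencing was done for OCT1, OCT2 and OCA-B and for the coactivators MED1, EP300 and CREBBP, with 1 library each and a shared input library as the control. The cells were kept in suspension culture, and no treatment, genotype change or second line is given for any library. All values therefore describe 1 cell line and 1 library per factor. There is no replicate check, and no test or p-value is given. OCA-B (the product of POU2AF1) is a lymphoid coactivator that does not bind DNA tightly by itself and is held at octamer elements by the POU domain factors OCT2 and OCT1. MED1 is a subunit of the Mediator complex, which links enhancers to RNA polymerase II. CREBBP and EP300 are related histone acetyltransferases found at active enhancers.

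The BCL2 family controls the mitochondrial route to apoptosis. BAX and BAK1 are the effectors that open the outer mitochondrial membrane, the pro-survival proteins hold them in check, and BH3-only proteins such as BIM (BCL2L11), PUMA (BBC3) and NOXA (PMAIP1) release or activate them. Germinal centre B cells are prone to apoptosis, and lymphomas derived from them often depend on a pro-survival member.

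On chromosomes 1 to 22 and X the lists held 23571 (OCT1) to 82569 (EP300) peaks, from 12357450 (CREBBP) to 27885791 (EP300) tags after filtering. The OCT1 list was the shortest. Redundant tags were at a rate of 0 in the MED1 and CREBBP libraries and 0.08 to 0.2 in the other 4 ChIP libraries, and the part of this difference in the values below was not tested. Genes that mark B cells were occupied, as MS4A1, CD79A, CD79B, PAX5 and CD22 each held at least 1 region shared by all 6 lists, with 14.9 (PAX5) to 68.9 (CD22) regions per 100 kb. None of 4 T cell and 4 myeloid marker genes held such a region, with medians of 5.86 and 2.48 regions per 100 kb, and CD8A and CSF1R had no region. Among the T cell genes CD3E had 8 regions, or 18.6 per 100 kb, and both CD3E and CD2 had peaks of 5 lists within 1 kb of an end.

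All 9 genes were occupied by every factor. Each received at least 1 peak from each of the 6 lists, a state reached by 39.4% of all protein-coding genes. Single lists gave at least 1 peak to 67.5% (OCA-B), 70.8% (OCT2), 55.6% (OCT1), 52.9% (MED1), 70.2% (EP300) and 55.5% (CREBBP) of genes. All 9 also held at least 1 region shared by all 6 lists, against 32.2% of genes. In all, 23 of the 161 regions were shared by all 6 lists and 55 came from a single list. The number of regions per gene ran from 5 (BAX) to 43 (PMAIP1), with a median of 13 against a median of 3 over all protein-coding genes. No region at the 9 genes lay inside another protein-coding gene.

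**Figure D1:**
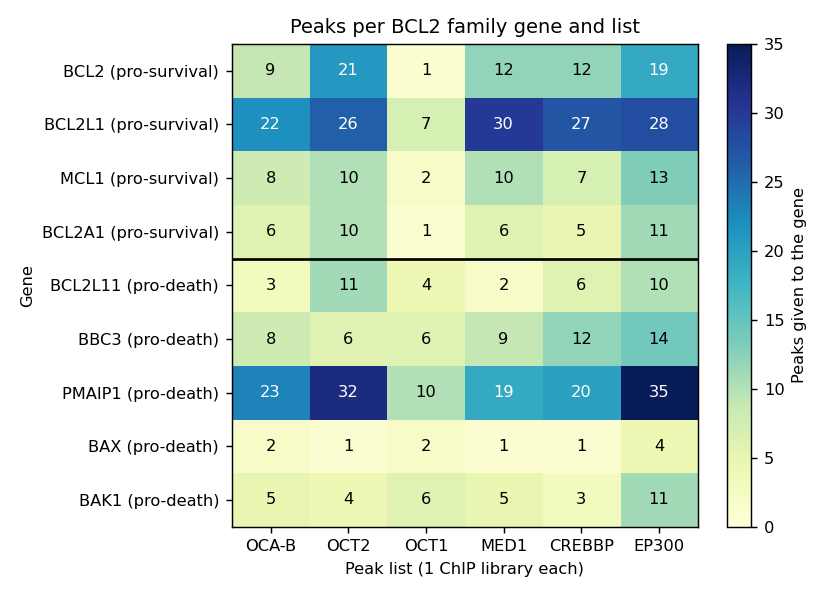
Peaks given to each BCL2 family gene (rows) from each of the 6 lists (columns, 1 ChIP library each), with the count printed in each cell. PMAIP1 and BCL2L1 stood above the other genes in every list, with 139 and 140 peaks in all, and BAX was lowest with 11.

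BCL2L1, which encodes BCL-XL, was more densely occupied than the other long genes, BCL2 and BCL2L11. It received 22 OCA-B, 26 OCT2, 7 OCT1, 30 MED1, 28 EP300 and 27 CREBBP peaks. The territory of a gene is the gene plus the flanking sequence within 100 kb that is nearer to it than to any other protein-coding gene. The 29 regions of BCL2L1 amounted to 37.7 per 100 kb of its 76.9 kb territory, and 2.54% of all genes had as many regions. The gene spans chr20:31664452-31723963 (hg38) on the minus strand, and 23 of its regions lay inside it. As many as 7 regions were shared by all 6 lists, more than at any other of the 9 genes. They included wide ones of several kb, such as chr20:31682022-31687454 and chr20:31690117-31695440 at 39.1 and 32.1 kb from the gene start. The strongest MED1 peak lay 18.1 kb into the gene, in the region chr20:31704214-31707578. There the authors' fold enrichment over the input was 15.3 for OCT2, 7.84 for OCT1, 17.3 for OCA-B, 20.3 for MED1, 15.6 for EP300 and 30.6 for CREBBP. Folds of different lists do not rank the factors, since depth and antibody differ. Within its own list the MED1 peak ranked 1582 of 43508. An adjoining region at 15.0 kb, chr20:31707604-31709607, was also shared by all 6 lists, with folds of 8.27 (OCT1) to 31.1 (CREBBP). The count of regions at BCL2L1 rose from 29 to 54 when lists were joined only where summits lay within 250 bp. The part of broad peaks in this rise was not tested.

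BCL2, the gene activated by translocation in many follicular lymphomas, differed from the other 8 in where its peaks lay. No list had a peak within 1 kb of either end of the gene, which was also true of 44% of protein-coding genes but of none of the other 8. Its nearest neighbour, KDSR, ends 7.64 kb from it. BCL2 spans chr18:63123346-63320090 on the minus strand, a length of 196.7 kb, and received 9 OCA-B, 21 OCT2, 1 OCT1, 12 MED1, 19 EP300 and 12 CREBBP peaks. Of 19 regions, 18 were inside the gene. Of these, 17 lay 106.4 to 188.8 kb from the gene start, and the other was a region of OCT2 alone at 34.5 kb (fold 7.77). The strongest EP300 peak lay 112.0 kb from the start at chr18:63206527-63208624, with a fold of 37.3 and rank 1504 of 82569. The same region carried OCA-B (9.63), OCT2 (13.2), MED1 (10.4) and CREBBP (22.3) but no OCT1 peak. A single region was shared by all 6 lists, chr18:63137842-63139438 at 181.3 kb. It held the only OCT1 peak of the gene (fold 12.6), along with OCA-B at 13.7, OCT2 at 21.9, MED1 at 4.05, CREBBP at 4.86 and EP300 at 14.8. Over its territory of 272.0 kb BCL2 had 6.98 regions per 100 kb, the lowest of the 9 genes. The median over all genes was 4.70.

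MCL1 encodes a short-lived pro-survival protein, and its gene is short as well (chr1:150574558-150579610, 5.05 kb, minus strand). It received 8 OCA-B, 10 OCT2, 2 OCT1, 10 MED1, 13 EP300 and 7 CREBBP peaks in 12 regions, or 36.7 per 100 kb of its territory. All lists but OCT1 had a peak at the gene start. The region there, chr1:150579488-150579776, had OCT2 at a fold of 10.8, OCA-B at 20.4, MED1 at 10.5, EP300 at 18.5 and CREBBP at 9.72. Its OCA-B peak was the strongest of that list at the gene and ranked 1819 of 55361. Both OCT1 peaks lay beyond the far end of the gene. They fell in the 2 regions shared by all 6 lists, chr1:150572759-150574135 at 6.32 kb from the start (OCT2 fold 18.2) and chr1:150565699-150569375 at 11.8 kb (EP300 21.8). The MED1 (12.6) and CREBBP (26.0) peaks of the latter region have their summits nearer to the neighbour ADAMTSL4 and are not among the peak counts of MCL1. The count for MCL1 depended on its neighbours. When lncRNA gene ends competed for peaks, 5 of the 12 regions were left.

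BCL2A1, a short pro-survival gene known as a target of NF-kB, received 6 OCA-B, 10 OCT2, 1 OCT1, 6 MED1, 11 EP300 and 5 CREBBP peaks in 12 regions. The gene lies at chr15:79960892-79971196 on the minus strand. One region was inside the gene, and 11 were upstream, counting the one that spans the start. The only OCT1 peak was at the start, in the only region shared by all 6 lists (chr15:79970931-79971696). Folds in it were 10.3 for OCT2, 3.62 for OCT1, 3.23 for OCA-B, 5.18 for MED1, 8.78 for EP300 and 4.29 for CREBBP. The OCT1 peak was a weak one, ranked 20958 of 23571. The strongest EP300 and CREBBP peaks of the gene lay far upstream, at −37.4 and −37.5 kb (negative positions are upstream of the start), with folds of 27.3 and 12.8. The region inside the gene, at 2.80 kb, held the strongest OCA-B peak (8.68) and the strongest MED1 peak (7.09).

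**Figure D2:**
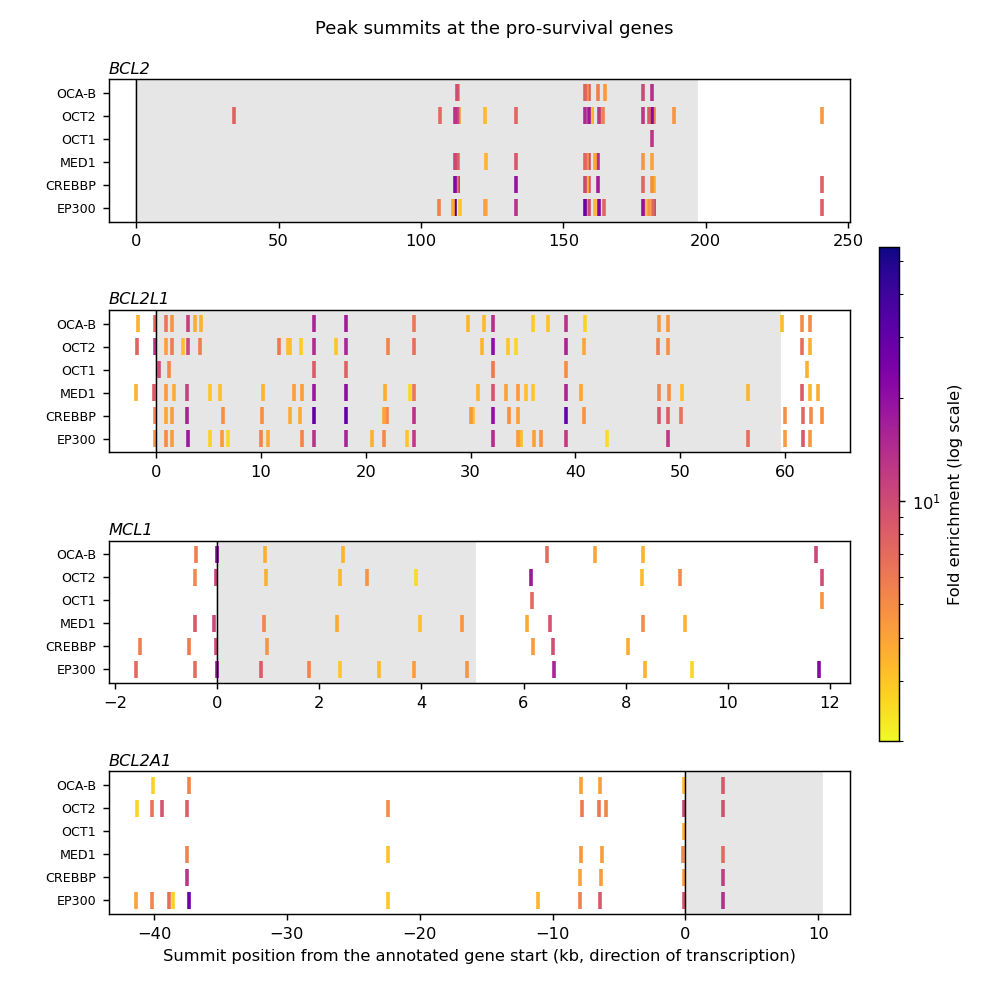
Summits of all peaks at the 4 pro-survival genes against their distance from the annotated gene start (kb, in the direction of transcription, gene body in grey), 1 row per list, coloured by the authors' fold enrichment on a log scale. BCL2 summits sat 106 kb or more from the start apart from a single OCT2 summit at 34.5 kb, BCL2L1 summits filled the gene body, and BCL2A1 summits reached 41.4 kb upstream.

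PMAIP1 encodes NOXA, a BH3-only protein that mainly neutralises MCL1 and BCL2A1. It had the most regions of the 9 genes. Its 43 regions were matched or passed by 1.00% of all genes, and it received 23 OCA-B, 32 OCT2, 10 OCT1, 19 MED1, 35 EP300 and 20 CREBBP peaks. The gene spans 4.31 kb at chr18:59899996-59904305 on the plus strand and has a territory of 204.3 kb. Its neighbours CCBE1 and MC4R are 202.3 and 466.8 kb away. Only 3 regions were inside the gene, 25 were upstream and 15 downstream. Per 100 kb of territory this was 21.0 regions, which 10.7% of genes reached. Of all its regions, 6 were shared by all 6 lists. The region chr18:59861866-59862976, near −37.7 kb, held the strongest OCA-B and OCT2 peaks found at any of the 9 genes. Its OCA-B fold was 28.1 (rank 525 of 55361) and its OCT2 fold was 49.5 (rank 178 of 73829). The other folds there were 10.4 for OCT1, 13.1 for MED1, 23.9 for EP300 and 22.4 for CREBBP. A neighbouring region at −39.8 kb had a CREBBP fold of 38.7 and an EP300 fold of 33.2. On the downstream side, a pair of regions at 58.2 and 61.4 kb had CREBBP folds of 25.03 and 43.7. Around the start, a region shared by all 6 lists lay at −0.64 kb and another at 0.99 kb, the latter with the strongest MED1 peak of the gene (20.4). Between them a region at 0.02 kb had only OCA-B (8.42) and OCT1 (5.81).

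BCL2L11 encodes BIM, the BH3-only protein that binds all pro-survival members. It received 3 OCA-B, 11 OCT2, 4 OCT1, 2 MED1, 10 EP300 and 6 CREBBP peaks in 13 regions, of which 10 were inside the gene (chr2:111120914-111168445, plus strand). One region stood above the rest. It lay 36.3 kb into the gene at chr2:111156551-111158488 and was the only one shared by all 6 lists. Folds there were 27.8 for OCT2 (rank 2789), 8.53 for OCT1 (5134), 19.6 for OCA-B (2098), 21.96 for MED1 (1288), 30.1 for EP300 (3262) and 52.1 for CREBBP (883). The CREBBP fold was the highest of that list at any of the 9 genes. This region held 1 of the 2 MED1 peaks of BCL2L11. The other was at 9.13 kb, with a fold of 4.76. At the start the lists other than MED1 had peaks, with folds of 5.40 (OCT1) to 9.07 (OCA-B).

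BBC3 encodes PUMA, a BH3-only protein induced by p53. Relative to its territory of 29.0 kb it was the densest of the 9 genes, with 16 regions or 55.2 per 100 kb, which 1.17% of genes reached. It received 8 OCA-B, 6 OCT2, 6 OCT1, 9 MED1, 14 EP300 and 12 CREBBP peaks. The gene spans chr19:47220824-47232860 on the minus strand. At the start it had MED1 (3.24), CREBBP (5.23) and EP300 (10.2) peaks, while OCA-B, OCT2 and OCT1 had none within 1 kb. For OCA-B this rested on the edge of that limit. The MED1 summit lay at 0.98 kb, and an OCA-B peak of the same region (fold 5.11) had its summit at 1.05 kb. The strongest OCT peaks were inside the gene. The OCT1 peak at 6.28 kb, in the region chr19:47226337-47227340, had a fold of 19.3 and ranked 750 of 23571, the best OCT1 rank at any of the 9 genes. The OCT2 fold in that region was 4.09. The strongest OCT2 peak (fold 20.0) was in another region, chr19:47228906-47230175 at 3.01 kb, where the OCT1 fold was 3.27, the lowest of that list at BBC3. Another region shared by all 6 lists lay at −11.2 kb, with an OCT1 fold of 15.2. Upstream of the start, between −2.80 and −6.43 kb, the regions held CREBBP peaks and, in 1 of 4, an EP300 peak, but none of the other lists. With lncRNA gene ends included, BBC3 kept 10 regions.

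BAX, the effector that moves from the cytosol to mitochondria, had the fewest regions. It received 2 OCA-B, 1 OCT2, 2 OCT1, 1 MED1, 4 EP300 and 1 CREBBP peaks in 5 regions, a number that 36.8% of genes reached. Its territory is only 13.6 kb, because FTL lies 3.51 kb and DHDH 9.91 kb from the gene (chr19:48954875-48961798, plus strand). The density of 36.7 regions per 100 kb was thus close to those of BCL2L1 and MCL1. All 6 lists met in 1 region at the start, chr19:48954307-48954881. The OCA-B fold was 14.7 and the OCT1 fold 11.4, while OCT2 (4.27), MED1 (3.42), CREBBP (3.99) and EP300 (5.06) were lower than the medians of their lists. The OCT1 peak ranked 2590 of 23571 and the OCT2 peak 57276 of 73829.

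BAK1, the effector that resides in the mitochondrial membrane, received 5 OCA-B, 4 OCT2, 6 OCT1, 5 MED1, 11 EP300 and 3 CREBBP peaks in 12 regions (chr6:33572552-33580276, minus strand). Of these, 9 were upstream. At the start there were OCA-B (4.50), OCT1 (5.00) and EP300 (5.12) peaks. The strongest peak of every list was in 1 region beyond the far end of the gene, chr6:33570264-33571490, at 9.37 kb from the start. Folds there were 21.2 for OCT2, 15.5 for OCT1, 11.9 for OCA-B, 11.4 for MED1, 24.5 for EP300 and 38.9 for CREBBP. It was the only region of BAK1 shared by all 6 lists. BAK1 kept 4 of its 12 regions when lncRNA gene ends were included.

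**Figure D3:**
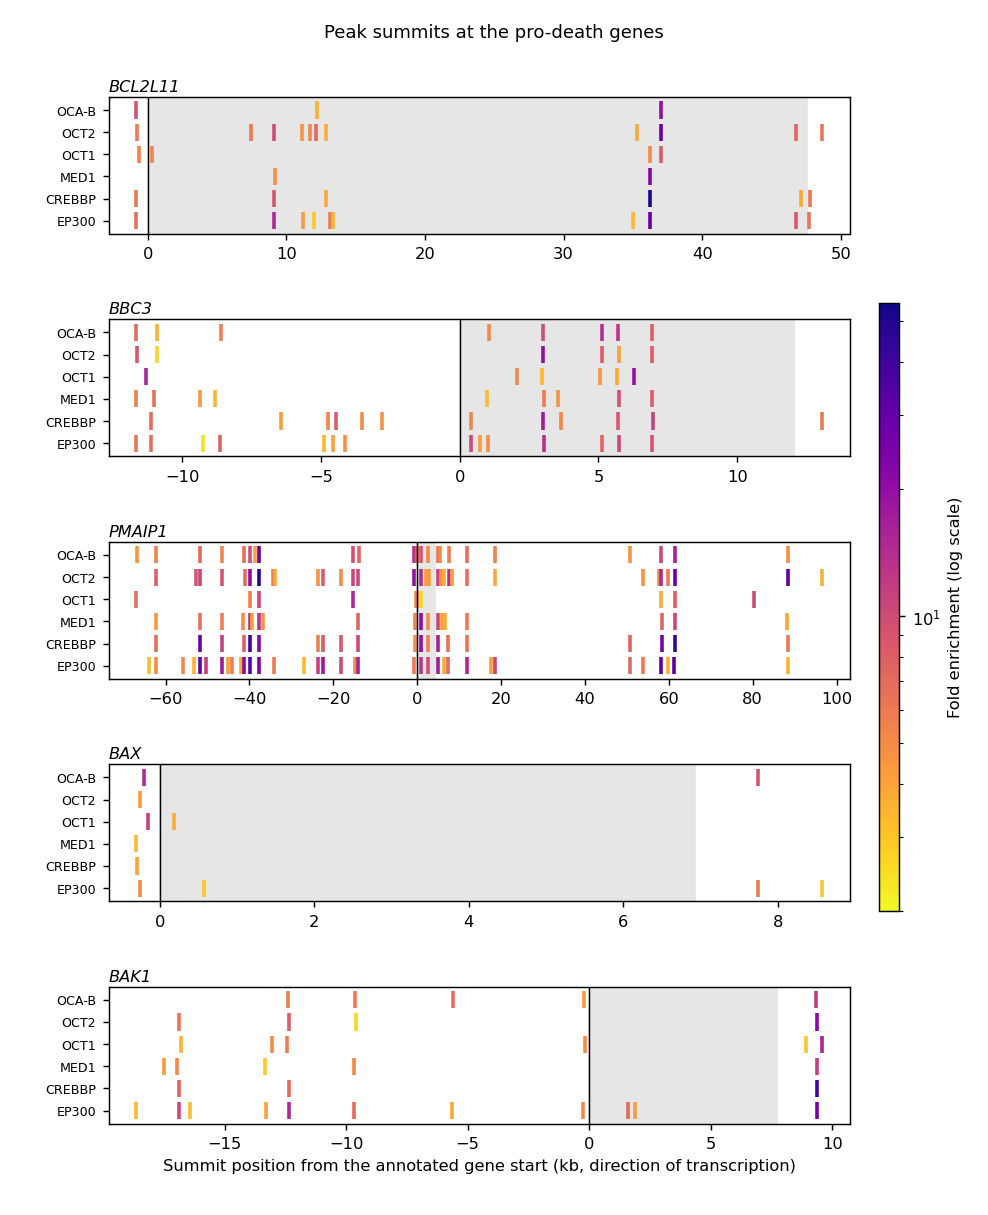
Summits of all peaks at the 5 pro-death genes, drawn as for the pro-survival genes (kb from the annotated start, gene body in grey, colour for the authors' fold on a log scale). PMAIP1 summits spread over the flanks on both sides of a 4.31 kb gene, and at BCL2L11 and BAK1 a single place at 36.3 and 9.37 kb held the strongest peaks.

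At gene ends, taken as within 1 kb of either end, the 9 genes differed in how many lists had a peak. BCL2L1, BCL2A1, PMAIP1 and BAX had peaks of all 6 lists, a state found at 21.8% of protein-coding genes. MCL1 and BCL2L11 had peaks of 5 lists, BBC3 and BAK1 of 3, and BCL2 of none. By factor, 7 of 9 genes had an OCA-B peak at an end (46.2% of all genes), 6 an OCT2 peak (40.9%), 6 an OCT1 peak (41.9%), 6 a MED1 peak (33.7%), 7 a CREBBP peak (31%) and 8 an EP300 peak (45.5%). Of the 4 pro-survival genes 2 had all 6 lists at an end, and of the 5 pro-death genes 2. An OCT1 peak was at an end of 2 of 4 pro-survival and 4 of 5 pro-death genes, and a MED1 peak at an end of 3 of 4 and 3 of 5. The OCT1 count depended on the 1 kb limit. With 2.5 kb, 8 of 9 genes had an OCT1 peak at an end and 6 had all 6 lists, while BCL2 still had none. With 500 bp these counts stayed at 6 and 4. At MCL1 an OCT1 peak ending at chr1:150573548 lay just outside the 1 kb limit.

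The 250 bases upstream of the RefSeq gene start (GRCh38.p14) are shown for the 4 genes at which all 6 lists met at the start, to show the DNA just before those starts. Bases are in lower case, 5′ to 3′ on the strand of the gene, and a match to an octamer-like motif is in capitals. The motifs searched on both strands were the octamer ATGCAAAT and its overlapping parts ATGCAAA and TGCAAAT.
BCL2A1, chr15:79971197-79971446, minus strand: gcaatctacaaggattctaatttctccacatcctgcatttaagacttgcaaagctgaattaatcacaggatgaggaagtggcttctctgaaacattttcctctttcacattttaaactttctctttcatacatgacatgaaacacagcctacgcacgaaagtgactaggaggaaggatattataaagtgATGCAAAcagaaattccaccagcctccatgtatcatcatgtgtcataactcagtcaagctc
BCL2L1, chr20:31723964-31724213, minus strand: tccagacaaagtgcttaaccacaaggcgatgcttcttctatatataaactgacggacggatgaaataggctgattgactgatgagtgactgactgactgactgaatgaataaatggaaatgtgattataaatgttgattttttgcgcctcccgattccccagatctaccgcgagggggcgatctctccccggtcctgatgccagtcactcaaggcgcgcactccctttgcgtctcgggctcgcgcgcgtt
PMAIP1, chr18:59899746-59899995, plus strand: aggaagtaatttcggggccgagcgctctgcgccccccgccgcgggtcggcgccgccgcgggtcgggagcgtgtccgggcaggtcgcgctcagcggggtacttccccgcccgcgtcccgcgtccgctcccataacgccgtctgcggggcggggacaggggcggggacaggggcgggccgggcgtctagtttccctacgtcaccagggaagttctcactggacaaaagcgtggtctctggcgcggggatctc
BAX, chr19:48954625-48954874, plus strand: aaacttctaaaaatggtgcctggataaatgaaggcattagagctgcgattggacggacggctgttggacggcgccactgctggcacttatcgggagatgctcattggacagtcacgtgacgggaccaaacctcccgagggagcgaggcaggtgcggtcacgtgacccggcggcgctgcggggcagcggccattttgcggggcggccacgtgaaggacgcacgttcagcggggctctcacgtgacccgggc

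BCL2A1 was the only one of these 4 with a match. The 7 letters ATGCAAA lie at chr15:79971251-79971257, starting 61 bases before the gene start. The 6 summits at the BCL2A1 start were 44 (CREBBP) to 101 (MED1) bases from it, with OCT2 at 48 and OCT1 at 49. The BCL2A1 stretch also differed in composition, with a GC content of 38.8% against 50% for the BCL2L1 stretch shown, 62.8% for BAX and 72.8% for PMAIP1. The promoter table also held another BCL2L1 stretch, inside the gene at chr20:31722869-31723118. It had a GC content of 60.4% and no match, and peaks of all 6 lists overlapped it. The median over 22132 promoters was 62%. Of those promoters 3.497% held ATGCAAA, 3.16% TGCAAAT and 1.58% the whole octamer ATGCAAAT, which no upstream stretch of the 8 genes found in the promoter table held. In that table BBC3 had TGCAAAT at chr19:47232910-47232916. Its stretch there is counted from a start inside the gene, so these letters lie just before the BBC3 start used above. The PMAIP1 stretch was overlapped only by OCA-B and OCT1 peaks, since its regions of all 6 lists lay to either side. At BAX the summits ranged from −146 (OCT1) to −306 (MED1) bases, and at BCL2L1 the OCT1 summit (295 bases inside the gene) lay apart from the other 5, at −131 to −181. A match is a description of the letters only, and the lack of one says nothing of the factors' binding.

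The number of regions did not separate pro-survival from pro-death genes. The 4 pro-survival genes had 303 peaks in 72 regions, with a median of 15.5 regions per gene (12 to 29), and the 5 pro-death genes 275 peaks in 89 regions, with a median of 13 (5 to 43). The ranges overlapped. Scaled to territory, the medians were 26.6 (6.98 to 37.7) and 21.0 (14.0 to 55.2) regions per 100 kb, against 4.70 over all genes. The direction of this difference was not stable. The difference of 5.52 regions per 100 kb became 15.7 without BCL2, −0.347 without PMAIP1 and −4.63 without BCL2L1. With no gene left out it was −0.780 with the stronger 50% of peaks, −0.809 with every list at the length of the shortest, −2.19 within 50 kb and −1.32 with lncRNA ends.

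**Figure D4:**
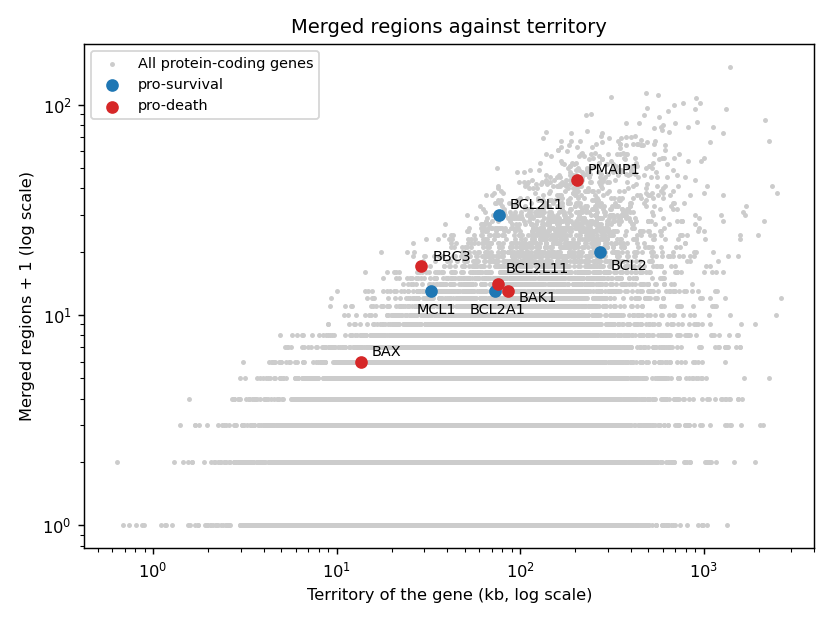
Merged regions plus 1 against territory (kb) for all protein-coding genes (grey), the 4 pro-survival genes (blue) and the 5 pro-death genes (red), both axes on a log scale. PMAIP1 is highest of the 9 at 43 regions and BAX lowest at 5, against a median of 3 over all genes, and the colours are mixed.

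Of the 6 factors, MED1 was the one whose share of regions differed between the classes beyond counting error. A MED1 peak was present in 45 of 72 pro-survival regions (62.5%, exact Clopper-Pearson 95% interval 50.3 to 73.6) and in 32 of 89 pro-death regions (35.96%, 26.1 to 46.8). The difference was 26.5 percentage points (Newcombe 95% interval 11.0 to 40.3). These intervals cover counting error only. Regions of 1 gene are not independent, and BCL2L1 alone gave 20 of the 45. The intervals thus do not measure the spread between genes, and whether the classes differ beyond that spread was not tested. Among all 102080 regions given to a protein-coding gene the share was 32.2%. Gene by gene, MED1 was in 83.3% of MCL1, 69.0% of BCL2L1, 50% of BCL2A1 and 47.4% of BCL2 regions. The MCL1 value counts the region at 11.8 kb, whose MED1 summit is nearer to ADAMTSL4. MED1 was in 43.8% of BBC3, 41.7% of BAK1, 39.5% of PMAIP1, 20% of BAX and 15.4% of BCL2L11 regions. The 2 sets of genes did not overlap in this share, although their nearest members, BCL2 and BBC3, differed by far less than the interval of either. The ranges did overlap with peaks of a −log10 q of at least 5 (37.5 to 66.7% and 18.2 to 50%), with the stronger 50% of peaks, with every list at the length of the shortest and with summits within 250 bp. Of 7356 genes with 5 or more regions, 20% had a MED1 share as high as that of BCL2 or higher.

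OCT1 went the other way, being in 11 of 72 pro-survival regions (15.3%, 7.88 to 25.7) and 25 of 89 pro-death regions (28.1%, 19.1 to 38.6). The difference was −12.8 points (−24.8 to 0.205), so its interval included 0, and all regions stood at 19.5%. The OCT1 share was lowest at BCL2 (5.26%) and BCL2A1 (8.33%) and highest at BAK1 (41.7%) and BAX (40%). The genes of the classes overlapped, as BCL2L1 (24.1%) was above PMAIP1 (23.3%) and BCL2L11 (23.1%). They did not overlap with summits within 250 bp (3.70 to 13.0% and 20 to 42.9%). Nor did they without BCL2L1 (5.26 to 16.7% and 23.1 to 41.7%), but they overlapped under every other alternative. For the other lists the intervals of the difference also included 0. The pro-survival and pro-death shares were 66.7% and 52.8% for OCT2, 48.6% and 43.8% for OCA-B, 52.8% and 44.9% for CREBBP, and 87.5% and 78.7% for EP300.

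**Figure D5:**
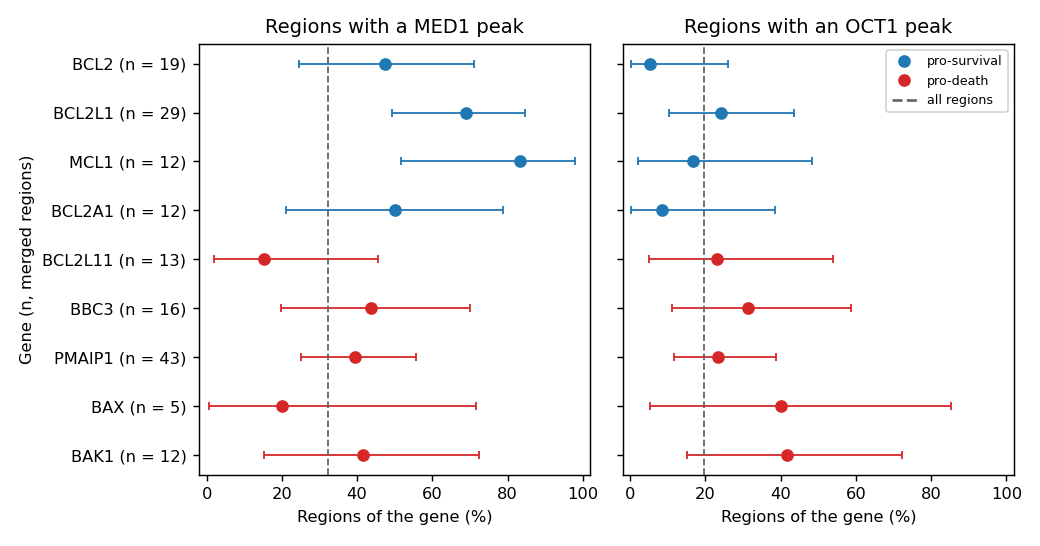
Percent of the merged regions of each gene that held a MED1 peak (left) or an OCT1 peak (right), with exact 95% intervals for counting error. Pro-survival genes are blue and pro-death genes red, and the dashed line is the share over all regions given to a gene (32.2% and 19.5%). MED1 shares were 47.4 to 83.3% in pro-survival and 15.4 to 43.8% in pro-death genes, while the OCT1 shares of the classes overlapped.

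The commonest set of factors at the pro-survival genes was OCA-B, OCT2, MED1, CREBBP and EP300 without OCT1. It accounted for 17 of 72 regions (23.6%), against 10 of 89 (11.2%) at pro-death genes and 10.8% of all regions. PMAIP1 contributed 9 of those 10, and the other 4 pro-death genes had 1 in 46 regions. Regions of all 6 lists were about as common in both classes, at 15.3% and 13.5%, against 9.62% of all regions. Regions with MED1, CREBBP and EP300 together made up 47.2% of pro-survival and 27.0% of pro-death regions, and 23.1% of all. Regions of a single list made up 27.8% and 39.3%, most of them EP300 alone (12 and 18 regions). Over all regions the single-list share was 46.5%.

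OCA-B was present in 32 of 48 OCT2 regions of pro-survival genes (66.7%, 51.6 to 79.6) and in 30 of 47 of pro-death genes (63.8%, 48.5 to 77.3), against 57.9% of all OCT2 regions. With both OCT2 and OCA-B, a region usually carried the coactivators. MED1 was in 30 of 32 pro-survival and 23 of 30 pro-death regions of this kind (71.7% over all genes), CREBBP in 28 and 26 (71.8%) and EP300 in 31 and 30 (89.5%). Where OCT2 lacked OCA-B, MED1 was in 8 of 16 pro-survival and 3 of 17 pro-death regions (13.7% over all genes), CREBBP in 5 and 6 (17.1%) and EP300 in 12 and 11 (42.4%). With the regions of each class pooled, each of the 3 coactivators was thus in a larger share of OCT2 regions with OCA-B than without it, the same direction as over all regions. Gene by gene this held for all 3 at BCL2, BCL2A1, BCL2L11 and PMAIP1, but not for every coactivator at BCL2L1, MCL1 and BAK1. BBC3 and BAX had no OCT2 region without OCA-B. The 8 MED1 regions among the 16 came from BCL2L1 (3 of 3), MCL1 (2 of 2), BCL2 (2 of 7) and BCL2A1 (1 of 4).

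At PMAIP1 the edge of the search window passed through no group of peaks on the downstream side. Upstream, CCBE1 is 202.3 kb away, so nearly all sequence beyond 100 kb is nearer to CCBE1 and the edge could hardly be checked. The farthest peak given by distance was an OCT2 peak 92.3 kb from this gene, and no further peak nearest to it lay between 100 and 120 kb. The other genes had neighbours at most 142.9 kb away. No peak beyond 100 kb could therefore be nearest to them, and the window edge could not be checked there.

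Beside the 9 genes, 8 others of the BCL2 family were examined. They are the pro-survival BCL2L2 and BCL2L10, the effector-like BOK, and the BH3-only BID, BAD, BIK, BMF and HRK. Of these, 7 had a region, each with at least 1 OCT2 peak, as 70.8% of all protein-coding genes had. The median of 3 regions (0 to 29) was the same as the median of 3 over all genes. A region shared by all 6 lists was held by 4 of 8, against 32.2% of all genes. BMF, a BH3-only gene tied to cytoskeletal stress, had 29 regions from 20 OCA-B, 18 OCT2, 6 OCT1, 17 MED1, 26 EP300 and 13 CREBBP peaks. BIK had 22 regions, with 10 OCA-B, 9 OCT2, 4 OCT1, 6 MED1, 21 EP300 and 5 CREBBP peaks. BOK had none. Downstream in the pathway, CYCS, which encodes the cytochrome c released from mitochondria, had 12 regions, none of them shared by all 6 lists. CASP9, the initiator caspase of the apoptosome, and XIAP, an inhibitor of caspases, had 8 each. CASP9 held 1 region shared by all 6 lists and XIAP none.

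The genes whose counts over the 6 lists were most like those of BCL2L1 were PPP1R16B, SERPINB9 and SMARCA4, at Euclidean distances of 0.27, 0.40 and 0.45 between log2(1 + count). PPP1R16B had 24 OCA-B, 26 OCT2, 7 OCT1, 28 MED1, 28 EP300 and 23 CREBBP peaks. For PMAIP1 they were RHBDD1, SSH2 and XXYLT1, at 0.25, 0.27 and 0.29.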

How the data were processed

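Peaks were called from 1 library per factor against a common input of 38884910 tags with MACS2 at a q threshold of 0.05 and 51 bp tags, per the file headers, and the files do not pool samples. The submitters' processing notes name MACS2 2.1.1.20160309, Bowtie2 2.3.2.2, CASAVA 1.8.2 and SAMtools 1.3.1 and the build hg38. The deposited fold enrichment, the pileup signal at the summit, and the −log10 p and −log10 q values are those of the authors' peak caller, and served here only within a list, to describe peaks, rank them or filter them.

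Gene ends came from RefSeq (GRCh38.p14), and strand from its promoter table or, for MCL1, from textbook knowledge. The 250 upstream bases came from the same table, which matched 8 of the 9 genes. Regions were counted with Python 3.11.15 and pandas 2.3.3, the counting having been checked on simulated peaks. Exact Clopper-Pearson intervals (95%) came from scipy 1.17.1. Every protein-coding gene was counted in the same way. The strongest peak of each list at each gene and the regions shared by all 6 lists were named by rule, as were the first 2 genes of each further list, those with no region, and the 3 genes nearest to the member of each class with the most regions. The members, lists and classes were chosen with earlier results of these data known. Alternatives were a −log10 q of at least 5, the stronger 50% of peaks by fold, lists cut to the shortest, a 50 kb window, lncRNA ends, any overlap with the gene, summits within 250 bp, end windows of 500 bp and 2.5 kb, and leaving out BCL2. Leaving out PMAIP1 or BCL2L1 was chosen after seeing the data. Some genes of the marker and pathway lists, and summaries that include them, are not reported here.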

Additional observations from a re-analysis of the deposited data

How the results depend on the processing

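No paired analysis was possible because each factor has 1 library and no test was made, so depth and antibody cannot be told apart from the factor. The difference between classes in median regions per 100 kb (5.52, pro-survival minus pro-death) was −0.780 with the stronger 50% of peaks, −0.809 with every list at the length of the shortest, −2.19 within 50 kb, −1.32 with lncRNA ends, 8.90 with summits within 250 bp, 15.7 without BCL2, −0.347 without PMAIP1 and −4.63 without BCL2L1. In median regions per gene (2.5) it was 1.5 at the shortest length, 5 with lncRNA ends, 4.5 with summits within 250 bp, −1 without BCL2 and −1 without BCL2L1. The cause of these changes was not tested. The MED1 difference (26.5 points) was 42.5 at the shortest length and 15.9 to 32.0 under the other 9 alternatives. The MED1 shares of the classes overlapped gene by gene at a −log10 q of at least 5, with the stronger 50%, at the shortest length and with summits within 250 bp. They stayed apart within 50 kb and with lncRNA ends. The OCT1 difference ran from −9.07 to −20.7. The OCT1 shares of the classes overlapped gene by gene except with summits within 250 bp and without BCL2L1. With the stronger 50% and at the shortest length, the 161 regions became 94 and 83, the 23 shared by all 6 lists 10 and 15, and the 4 genes with all 6 lists at an end 1 and 1. Genes with no list at an end rose from 1 to 2 with the stronger 50%. An end window of 2.5 kb raised the genes with all 6 lists at an end from 4 to 6, and 500 bp left them at 4. The EP300 difference (8.85 points) was −5.23 with summits within 250 bp. The OCA-B difference (4.79) was −10.4 at a −log10 q of at least 5 and −4.35 with the stronger 50%.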
